A study of Mus musculus with 9 samples.

Results

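Scg5, Pcsk1, Pcsk2, Pcsk5, Pcsk7, Furin and Pcsk1n, which encode proprotein convertases and the small proteins that bind them, were examined in CD8 T cells of 3 transnuclear mouse clones. The members were found by symbol and are 7 of the 24060 genes measured. Scg5 and Pcsk1 were picked because their levels differed between the clones, so that their values are a description with no test. The other 5 were set beside them by family.

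The lines Rop7-I, Rop7-II and Rop7-III were each made by transfer of the nucleus of a single CD8 T cell. Each line therefore inherits 1 rearranged T-cell receptor at its own locus, with no transgenic promoter. The study found secondary rearrangements at these loci to be common, with tetramer-negative CD8 T cells also in homozygous mice. The 3 receptors bind a peptide of the Rop7 protein of Toxoplasma gondii on the class I molecule H-2Ld. Per the study, the mice had been backcrossed to BALB/c, and the profiled cells came from homozygous animals that were not stimulated with antigen. Splenocytes rested overnight in medium with 10 ng/ml of IL-2, cells positive for CD3, CD8 and the H-2Ld-Rop7 tetramer were sorted to a purity of 90 to 95%, and polyadenylated RNA was sequenced from 200 ng. Each clone has 3 biological replicates, 9 samples in all, and the labels do not give the animals behind them, nor their age. Each line descends from 1 donor nucleus, so that an effect of the receptor and any other difference between the lines cannot be told apart.

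Values are in TPM, a measure of transcript abundance that is divided by transcript length and scaled to a common total, so that genes can be compared. They keep no read counts. The study gives a typical read depth per sample, but the reads behind each value are unknown, and no counting interval was computed. Between 11056 and 11494 genes were above 1 TPM in a sample. Summed over 10 markers of CD8 T cells, the level was 8428 to 8666 TPM in Rop7-I, 8836 to 9284 in Rop7-II and 8475 to 8665 in Rop7-III. All Rop7-II samples thus lay above all others in this sum. Summed over 14 B-cell markers, it was 424 to 1110 in Rop7-I, 201 to 2586 in Rop7-II and 157 to 333 TPM in Rop7-III. Rop7-II replicate 1 had the highest value of 14 of the 14 B-cell markers, and the Furin results and the counts of pathway genes are given with and without it.

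Proprotein convertases are serine proteases that cut precursor proteins after pairs of basic residues in the secretory pathway. Furin and Pcsk7 cycle through the trans-Golgi network of nearly all cells and cut growth factors, integrins, Notch receptors and metalloproteases. Pcsk1 and Pcsk2 work in the dense-core granules of neurons and endocrine cells, where they cut prohormones. Scg5, also called 7B2, is the chaperone that Pcsk2 needs to become active, and Pcsk1n, or proSAAS, is an inhibitor of Pcsk1. In T cells the convertase studied most is Furin, which activates transforming growth factor beta.

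Scg5 was expressed near 100 TPM in 2 clones and was low in the other. On the mm10 build it lies on the minus strand of chr2:113776313-113829091. In Rop7-I T cells it measured 100.33, 104.96 and 96.53 TPM, a mean of 101 ± 4.22 (SD, n = 3). In Rop7-III T cells it measured 100.88, 93.61 and 97.34 TPM, a mean of 97.3 ± 3.64 (SD, n = 3). The values of these clones overlapped. The Rop7-II samples measured 3.27, 2.46 and 3.61 TPM, a mean of 3.11 ± 0.591 (SD, n = 3). All Rop7-II samples lay below all others, and the mean was 31.2 times as high in Rop7-III and 32.3 times as high in Rop7-I T cells. The differences in log2(TPM + 1) were 4.59 and 4.64, and -0.05 for Rop7-III minus Rop7-I. With 1 TPM added to each value before the logarithm, the log scale understates the fold of a gene as low as Scg5 in Rop7-II. Ranked by mean TPM, Scg5 stood at place 1888 of 15734 genes above 0 in Rop7-I and 1970 of 15682 in Rop7-III, but at place 10076 of 15675 in Rop7-II. The Rop7-II sample with the most B-cell marker RNA held 3.27 TPM of Scg5, between the other two samples of that clone. In bulk RNA, fewer cells with a transcript and less of it per cell cannot be told apart.

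Pcsk2, the protease that Scg5 serves, was listed at 0 TPM in all 9 samples. The gene lies at chr2:143546133-143816284. The clones with high Scg5 therefore had no Pcsk2 value beside it.

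Pcsk1, which starts the cutting of prohormones such as proopiomelanocortin, was ordered differently from Scg5. The gene lies on the plus strand of chr13:75089420-75134861. It measured 18.48, 23.22 and 16.46 TPM in the Rop7-II clone, a mean of 19.4 ± 3.47 (SD, n = 3). In Rop7-I T cells it measured 10.82, 9.5 and 5.66 TPM, a mean of 8.66 ± 2.68 (SD, n = 3). In Rop7-III T cells it measured 3.08, 3.2 and 2.49 TPM, a mean of 2.92 ± 0.380 (SD, n = 3). The ranges did not overlap in any pair of clones, and Rop7-II, the clone with low Scg5, was the highest. The mean in Rop7-II was 6.63 times that in Rop7-III and 2.24 times that in Rop7-I, and the mean in Rop7-I was 2.96 times that in Rop7-III. The differences in log2(TPM + 1) were -2.37 for Rop7-III minus Rop7-II, -1.26 for Rop7-III minus Rop7-I and -1.11 for Rop7-I minus Rop7-II. Rop7-II replicate 1 held 18.48 TPM, between the other two Rop7-II samples. Thus Scg5 separated 1 clone from the other two, whereas Pcsk1 took a different level in each of the 3.

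**Figure D1:**
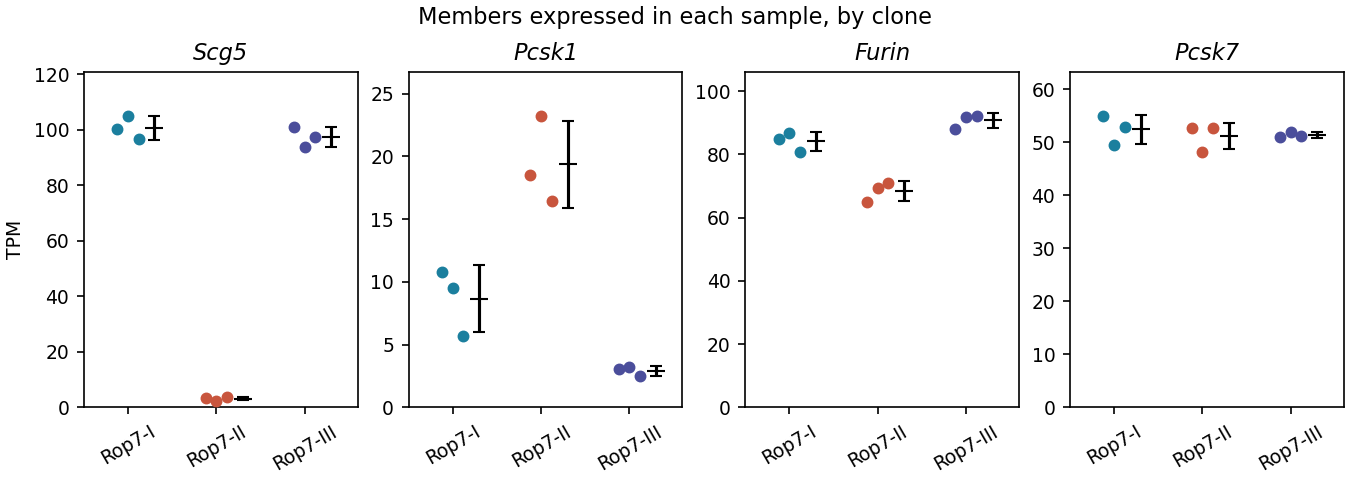
TPM of Scg5, Pcsk1, Furin and Pcsk7 (vertical axes from 0, each with its own range) in each of 3 samples per clone (points), with the mean and SD (black). Scg5 is low in the Rop7-II samples alone (2.46 to 3.61 TPM), Pcsk1 falls from Rop7-II to Rop7-I to Rop7-III, Furin is lowest in Rop7-II and Pcsk7 overlaps in all clones.

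The inhibitor Pcsk1n was listed at 0 TPM in 8 of 9 samples and at 0.07 TPM in Rop7-II replicate 3. It lies at chrX:7919822-7924410. Pcsk5, a widely expressed convertase that resembles Furin in its targets, was listed at 0 in 6 samples, at 0.03 TPM in Rop7-II replicate 1 and at 0.02 TPM in Rop7-III replicates 1 and 2. It lies at chr19:17432314-17837712. Pcsk2, Pcsk1n and Pcsk5 did not exceed 1 TPM in any sample and were not tested. The members that could be tested were thus 4 of 7, of which Scg5 and Pcsk1 had been chosen on these values.

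Furin was lowest in Rop7-II T cells, and its values rose from Rop7-II to Rop7-I to Rop7-III, though the last step did not pass. It lies on the minus strand of chr7:80389194-80405441. It measured 64.85, 69.51 and 71.11 TPM in the Rop7-II clone, a mean of 68.5 ± 3.25 (SD, n = 3). In Rop7-I T cells it measured 84.94, 86.8 and 80.94 TPM, a mean of 84.2 ± 2.99 (SD, n = 3). In Rop7-III T cells it measured 88.18, 91.96 and 92.18 TPM, a mean of 90.8 ± 2.25 (SD, n = 3). The ranges of the 3 clones did not overlap, and the order of Rop7-III, Rop7-I and Rop7-II is the reverse of that of Pcsk1. In a limma fit of 12115 genes, Furin exceeded its Rop7-II level in Rop7-III by 0.40 ± 0.04 (SE) in log2(TPM + 1), a 1.33-fold ratio of means, with an adjusted p of 2.71e-04. It was higher in Rop7-I than in Rop7-II by 0.29 ± 0.04 (SE), a 1.23-fold ratio, with an adjusted p of 0.00227 by limma. Between Rop7-III and Rop7-I the difference was 0.11 ± 0.04 (SE), with an adjusted p of 0.148 by limma and a 95% interval of 0.01 to 0.21. That interval comes from the unadjusted test, and the pair did not pass the limit of 0.01.

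The call between Rop7-I and Rop7-II was lost when Rop7-I replicate 1 was left out (adjusted p of 0.0112 by limma) or when Rop7-I replicate 2 was left out (0.0128), and in a fit of only those 2 clones (0.0138). Without Rop7-II replicate 1, which had the most B-cell marker RNA, Furin was higher by 0.36 in Rop7-III and by 0.26 in Rop7-I than in Rop7-II, with adjusted p of 4.57e-04 and 0.00421 by limma. These differences were small beside those of Scg5 and Pcsk1.

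Markers of other cells and of cell state also differed between the clones. Summed over 7 NK-cell markers, the level was 307 to 329 TPM for Rop7-I, 185 to 256 for Rop7-II and 339 to 529 for Rop7-III, without overlap and in the order of Furin. Klrd1, which CD8 T cells can express too, made most of that sum, while Ncr1 and Klrb1c, which define NK cells, were at no more than 1.19 and 0.6 TPM. Summed over 8 markers of naive and memory-like CD8 T cells, the level was 3240 to 3318 TPM for Rop7-I, 2518 to 2787 for Rop7-II and 3558 to 3652 for Rop7-III, again without overlap and in the order of Furin. Rop7-II, the clone with low Scg5, was the lowest in both sums. Summed over 14 myeloid markers, the level was 61.4 to 144 TPM for Rop7-I, 79.5 to 698 for Rop7-II, with the highest value in replicate 1, and 39.4 to 89.1 for Rop7-III. Their part in the levels of Scg5, Pcsk1 and Furin was not tested.

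Pcsk7, the other convertase common to most cells, was close to level. It lies on the plus strand of chr9:45906447-45932107. It measured 54.93, 49.55 and 52.85 in Rop7-I, 52.65, 48.23 and 52.6 in Rop7-II and 50.93, 51.89 and 51.23 TPM in Rop7-III T cells. The ranges overlapped in every pair of clones, and the means were 52.4 ± 2.71, 51.2 ± 2.54 and 51.4 ± 0.491 TPM (SD, n = 3). The difference in log2(TPM + 1) between Rop7-III and Rop7-II was 0.01, with a 95% interval of -0.10 to 0.12 and an adjusted p of 0.938 by limma. For Rop7-III minus Rop7-I it was -0.03 (-0.14 to 0.08, adjusted p of 0.754 by limma), and for Rop7-I minus Rop7-II 0.03 (-0.08 to 0.15, adjusted p of 0.677 by limma). The gene overlaps Rnf214 by 465 bp and Tagln by 2480 bp. The libraries do not keep the strand, so that reads in these stretches cannot be assigned with certainty, and Rnf214 stood at 29.97 to 36.51 TPM and Tagln at 6.8 to 10.07 TPM.

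**Figure D2:**
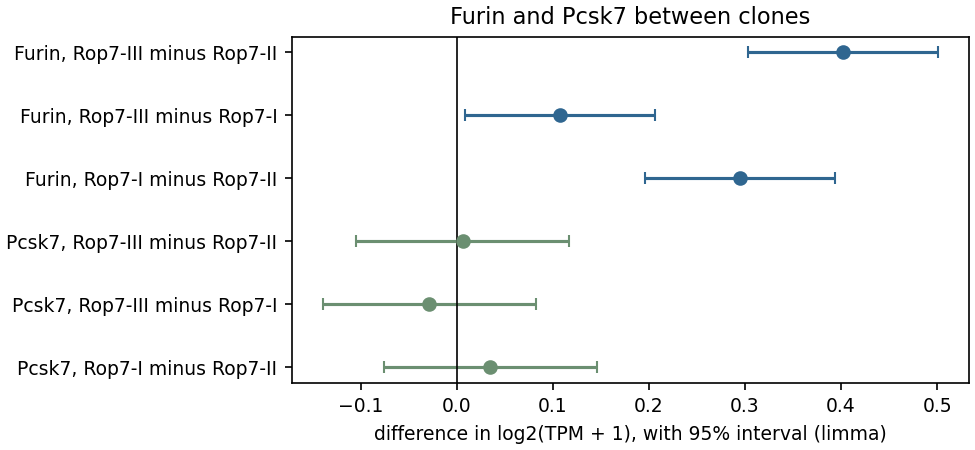
Differences in log2(TPM + 1) of Furin (blue) and Pcsk7 (green) for each pair of clones, with 95% intervals from limma that are not adjusted for the number of genes. Furin lies 0.40 above Rop7-II in Rop7-III and 0.29 above it in Rop7-I, and the 3 intervals of Pcsk7 include 0.

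Of Furin and Pcsk7, the 2 tested members that had not been picked for a difference, 1 passed at an adjusted p under 0.01 between Rop7-III and Rop7-II, as higher. Over all 12115 genes tested in that pair, 6.39% passed as higher and 5.89% as lower. Between Rop7-I and Rop7-II likewise 1 of the 2 passed as higher, where 3.67% of all genes passed as higher and 3.85% as lower. Between Rop7-III and Rop7-I neither passed, and 2.58% of all genes passed as higher and 2.28% as lower. In an F test across the 3 clones Furin had an adjusted p of 5.12e-04 and Pcsk7 of 0.812 by limma, and 14.1% of all genes passed. The pairs share samples, and the 2 calls of Furin rest on the same Rop7-II values.

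Since TPM is scaled to length, the convertases were also compared within a sample. Summed over Pcsk1, Pcsk2, Pcsk5, Pcsk7 and Furin, the level was 145 ± 5.64 TPM in Rop7-I, 139 ± 2.66 in Rop7-II and 145 ± 2.54 in Rop7-III (SD, n = 3). Furin held most of the sum, with 58.0 ± 1.57% in Rop7-I, 49.2 ± 1.53% in Rop7-II and 62.6 ± 0.588% in Rop7-III. Pcsk7 held 36.1 ± 1.99%, 36.8 ± 2.33% and 35.4 ± 0.365%, in the same order. Pcsk1 held 5.92 ± 1.64% in Rop7-I, 13.9 ± 2.38% in Rop7-II and 2.02 ± 0.268% in Rop7-III. In every sample the order was Furin, Pcsk7 and Pcsk1. The share of Pcsk1, and with it those of the others, carries the choice of Pcsk1.

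The ratio of Furin to Pcsk7 does not use Pcsk1. It was 1.53 to 1.75 in Rop7-I, 1.23 to 1.44 in Rop7-II and 1.73 to 1.80 in Rop7-III T cells. The Rop7-II values lay below all others, while those of Rop7-I and Rop7-III overlapped. An exact permutation test, two-sided, gave p = 0.1 for Rop7-III against Rop7-II and for Rop7-I against Rop7-II, and p = 0.2 for Rop7-III against Rop7-I (0.15, 0.15 and 0.2 adjusted over the 3 pairs). With 3 samples against 3, 0.1 is the smallest p this test can give. Scg5 RNA stood at about the level of Furin RNA in 2 clones, with a ratio of 1.19 in Rop7-I and 1.07 in Rop7-III, and at 0.0455 of it in Rop7-II.

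**Figure D3:**
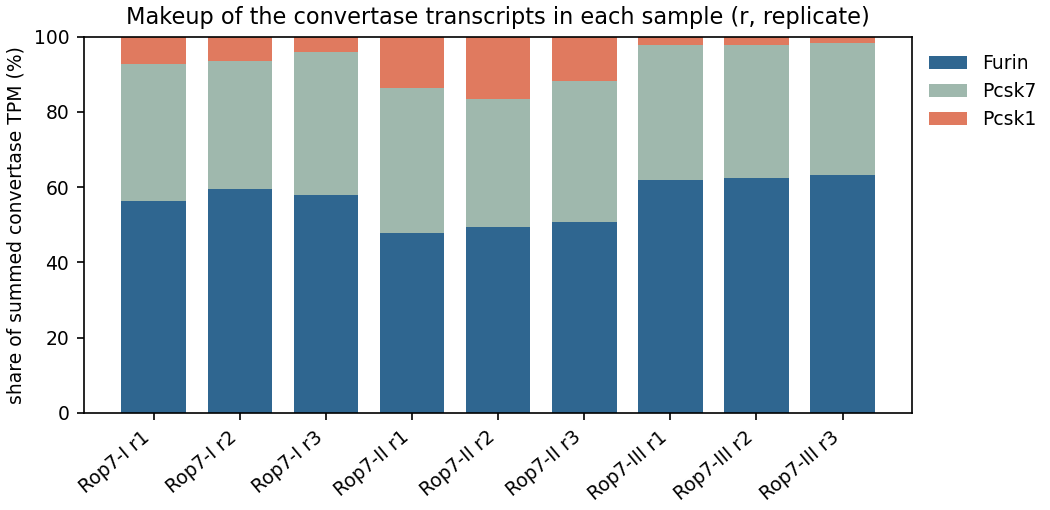
Share of the summed convertase TPM (vertical axis, %) held by Furin (blue), Pcsk7 (grey-green) and Pcsk1 (orange) in each sample. Pcsk2 and Pcsk5 are at or near 0, and the share of Pcsk1 is largest in the Rop7-II samples, with a mean of 13.9%, where that of Furin is smallest, with a mean of 49.2%.

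Among the other genes of the pathway, 120 were listed in 7 groups by role, and 70 of them exceeded 1 TPM in some sample and were tested. Between Rop7-III and Rop7-II, 6 passed as higher and 7 as lower, which is 18.6% of those tested, beside 6.39% higher and 5.89% lower over all 12115 genes. Between Rop7-III and Rop7-I, 3 passed as higher and 4 as lower, or 10%, beside 2.58% and 2.28% over all genes. Between Rop7-I and Rop7-II, 4 passed as higher and 5 as lower, or 12.9%, beside 3.67% and 3.85% over all genes. In the 9 fits that each left out 1 sample, the calls held throughout for 10 of 13, 4 of 7 and 4 of 9 genes in these pairs. Without Rop7-II replicate 1 the numbers that passed were 12, 10 and 10. Between Rop7-III and Rop7-I, 4 passed without Rop7-I replicate 1 or without any one Rop7-III sample, and between Rop7-I and Rop7-II, 4 passed without Rop7-I replicate 2 and 5 without Rop7-I replicate 1, Rop7-II replicate 3 or Rop7-III replicate 2. The medians of log2(TPM + 1) differences over all genes tested were -0.02, -0.00 and -0.01.

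Of 4 other convertases, Mbtps1 and Pcsk4 were tested. Mbtps1, the site-1 protease that cuts sterol-regulated transcription factors at the Golgi membrane, had a higher level than any member convertase, at 141 ± 1.33 TPM in Rop7-I, 152 ± 7.67 in Rop7-II and 124 ± 2.52 in Rop7-III (SD, n = 3). It was lower in Rop7-III than Rop7-II by 0.28 ± 0.04 (SE) in log2(TPM + 1), with an adjusted p of 8.23e-04 by limma, and the other pairs did not pass. Its direction was thus opposite to that of Furin between those clones. Pcsk4, a convertase of germ cells, was at 0.43 to 1.05 TPM. Pcsk6 was listed at 0 in every sample.

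Of 5 genes listed as convertase inhibitors, Gbp2 and Gbp5 were tested. They encode interferon-induced GTPases that are known to lower the activity of furin. Gbp2 measured 93.05, 91.19 and 77.49 in Rop7-I, 61.19, 65.97 and 65.09 in Rop7-II and 48.59, 45.48 and 45.77 TPM in Rop7-III T cells. No ranges overlapped, and Rop7-III, with the highest Furin, had the lowest Gbp2. Between Rop7-I and Rop7-II, however, Gbp2 and Furin were both higher in Rop7-I. Gbp2 was lower in Rop7-III than in Rop7-I by 0.89 ± 0.07 (SE) and than in Rop7-II by 0.45 ± 0.07 (SE) in log2(TPM + 1), with adjusted p of 7.85e-05 and 0.00154 by limma. Rop7-I exceeded Rop7-II by 0.44, with an adjusted p of 0.00279 by limma that rose to 0.0121 without Rop7-I replicate 1 and to 0.0157 without Rop7-I replicate 2. Gbp5, at 14.9 ± 1.74, 9.28 ± 1.03 and 7.18 ± 0.880 TPM in Rop7-I, Rop7-II and Rop7-III (SD, n = 3), was lower in Rop7-III than in Rop7-I by 0.96 ± 0.11 (SE), with an adjusted p of 9.99e-04 by limma. It was higher in Rop7-I than in Rop7-II by 0.63 with an adjusted p of 0.00629 by limma, which was over 0.01 without Rop7-I replicate 1 (0.0266) or 2 (0.0295), Rop7-II replicate 2 (0.0205) or 3 (0.0214), or Rop7-III replicate 2 (0.0127). Both tested inhibitors thus passed as lower in Rop7-III than in Rop7-I, where 2.28% of all genes did, and they are related genes induced by the same cytokine.

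Of 13 enzymes that trim or modify prohormones after the first cut, 9 were tested and 1 passed between Rop7-III and Rop7-II, Ctsl, as higher, where 6.39% of all genes did. Ctsl, a lysosomal cysteine protease that also cuts neuropeptide precursors, was at 34.8 ± 2.36 TPM in Rop7-I, 27.6 ± 2.77 in Rop7-II and 48.4 ± 2.31 in Rop7-III (SD, n = 3). It was higher in Rop7-III than Rop7-II by 0.79 ± 0.08 (SE), with an adjusted p of 1.41e-04 by limma. Its call between Rop7-III and Rop7-I, a difference of 0.47, held in 3 of the 9 fits that left out 1 sample, with adjusted p of up to 0.0258 by limma. It was lost without any one of the Rop7-I or Rop7-III samples. Rnpepl1, a relative of aminopeptidase B, passed between Rop7-I and Rop7-II at -0.21 (adjusted p of 0.00560 by limma), a call that held in 1 of these 9 fits, the one without Rop7-II replicate 1, with adjusted p of up to 0.0265. The median differences of the list were -0.07, 0.04 and -0.01 for Rop7-III minus Rop7-II, Rop7-III minus Rop7-I and Rop7-I minus Rop7-II.

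The cargo and granule proteins of endocrine cells, with which Scg5 and Pcsk1 are known to work, were mostly at or near 0. Of 23 precursors of neuropeptides and hormones, 13 were listed at 0 TPM in every sample, beside 7126 of all 24060 genes. Among the 13 were Gcg, Npy and Sst. The 4 precursors that were tested, Pomc, Ghrl, Agrp and Cort, did not exceed 6.01 TPM. None of the 4 passed in any pair by limma, with 3, 1 and 0 genes at an unadjusted p under 0.05 for Rop7-III minus Rop7-II, Rop7-III minus Rop7-I and Rop7-I minus Rop7-II. Pomc, a known substrate of Pcsk1 and Pcsk2, was at 0.55 to 1.74 TPM. Of 20 granins and proteins of dense-core vesicles, the granins Chga, Chgb, Scg2, Scg3 and Vgf did not exceed 0.26 TPM. The 6 that were tested, Rab27a, Rab3d, Unc13d, Dnajc5, Vamp2 and Stx1a, belong to the machinery of vesicle release, and T cells also use Rab27a and Unc13d to release lytic granules. None of the 6 passed in any pair by limma, with 1, 4 and 1 genes at an unadjusted p under 0.05. Genes of these lists that did not pass were named after their values were seen.

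Of 10 markers of neuroendocrine cells, the sum was 4.33 to 5.11 in Rop7-I, 10.0 to 11.4 in Rop7-II and 5.98 to 6.69 TPM in Rop7-III T cells. Between 4 and 6 of the 10 were at 0 in a sample, and Neurod1 was at 0 in all 9. The sum was therefore highest in the clone with the lowest Scg5 and the highest Pcsk1, and Eno2 and Tubb3, which are expressed beyond such cells, made most of it.

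Of 35 known substrates of Furin and related convertases, 27 were tested, and 3 passed as higher and 3 as lower between Rop7-III and Rop7-II, where 6.39% of all genes passed as higher and 5.89% as lower. Between Rop7-III and Rop7-I, 1 passed as higher and 2 as lower, beside 2.58% and 2.28% of all genes, and between Rop7-I and Rop7-II, 2 as higher and 3 as lower, beside 3.67% and 3.85%. Itga6, the integrin subunit of laminin receptors, measured 208.27, 227.86 and 220.9 in Rop7-I, 55.76, 53.67 and 69.5 in Rop7-II and 154.28, 167.81 and 166.53 TPM in Rop7-III T cells. Like Scg5 and Furin, it was lowest in every Rop7-II sample, and it was higher by 1.44 ± 0.09 (SE) in Rop7-III and by 1.87 ± 0.09 (SE) in Rop7-I, with adjusted p of 1.19e-05 and 1.92e-06 by limma. Itgae, or CD103, the integrin subunit that binds E-cadherin, measured 145.2, 114.1 and 163.65 in Rop7-I, 244.05, 254.35 and 235.09 in Rop7-II and 103.67, 98.05 and 94.64 TPM in Rop7-III T cells. The clones kept the order of Pcsk1, and Itgae was lower than in Rop7-II by 1.30 ± 0.11 (SE) in Rop7-III and by 0.80 ± 0.11 (SE) in Rop7-I, with adjusted p of 5.57e-05 and 0.00131 by limma. Its locus overlaps another gene, Haspin, and reads in any stretch shared by both could not be assigned by strand.

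Notch3, a Notch receptor that convertases cut on its way to the surface, was at 2.34 ± 0.396 TPM in Rop7-I, 7.50 ± 0.940 in Rop7-II and 1.12 ± 0.180 in Rop7-III (SD, n = 3). It was lower than in Rop7-II by 2.00 ± 0.14 (SE) in Rop7-III and by 1.35 ± 0.14 (SE) in Rop7-I, with adjusted p of 1.95e-05 and 2.80e-04 by limma. Adam19, a membrane metalloprotease, was lower in Rop7-III, at 46.9 ± 1.5 TPM, than in Rop7-I at 89.8 ± 9.45 TPM or Rop7-II at 77.5 ± 2.35 TPM (SD, n = 3), by 0.92 ± 0.07 (SE) and 0.71 ± 0.07 (SE), with adjusted p of 7.34e-05 and 1.27e-04 by limma. Itgav, an integrin subunit that binds latent transforming growth factor beta, was higher in Rop7-III than Rop7-II by 0.50 ± 0.07 (SE), with an adjusted p of 0.00110 by limma. Itgav also passed for Rop7-I minus Rop7-II at 0.40 (adjusted p of 0.00526 by limma). That call held in 3 of the 9 fits that left out 1 sample, with adjusted p of up to 0.0259.

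Tfrc, the transferrin receptor, which Pcsk7 is known to trim, was at 36.0 ± 0.405 TPM in Rop7-III against 27.8 ± 0.660 in Rop7-I and 28.0 ± 2.54 in Rop7-II (SD, n = 3). Both differences passed, at 0.36 and 0.35 (adjusted p of 0.00637 and 0.00352 by limma), but neither held when any one Rop7-III sample was left out, with adjusted p of up to 0.0303, and the first also failed without any one Rop7-I sample. Tgfb1, the precursor of transforming growth factor beta, was named after its values were seen. It measured 108.38, 109.25 and 108.19 in Rop7-I, 139.76, 124.2 and 128.53 in Rop7-II and 109.88, 116.52 and 119.59 TPM in Rop7-III T cells. All Rop7-II samples lay above all others, whereas Furin was lowest in that clone. Tgfb1 passed for Rop7-I minus Rop7-II at -0.26 ± 0.05 (SE), with an adjusted p of 0.00567 by limma, and in no other pair. The call was lost without any one Rop7-I sample, Rop7-II replicate 3 or Rop7-III replicate 2, with adjusted p of up to 0.0227. Adam10, Adam17, Notch1 and Insr, which are also cut by Furin, passed in no pair. The median differences over the 27 substrates were -0.11, -0.08 and -0.03 for Rop7-III minus Rop7-II, Rop7-III minus Rop7-I and Rop7-I minus Rop7-II, with members on both sides of 0.

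All 20 genes for the sorting of convertases at the trans-Golgi network were tested, and 2 passed as higher and 2 as lower between Rop7-III and Rop7-II, beside 6.39% and 5.89% of all genes. Between Rop7-III and Rop7-I, 1 of the 20 (5%) passed, as higher, beside 2.58% of all genes. Between Rop7-I and Rop7-II, 1 of the 20 (5%) passed, as lower, beside 3.85% of all genes. Pacs2, a member of the family of adaptors that return furin to the Golgi, measured 86.31, 80.44 and 88.89 in Rop7-I, 168.96, 174.11 and 180.67 in Rop7-II and 138.46, 135.91 and 136.09 TPM in Rop7-III T cells. No ranges overlapped, and all 3 pairs passed. Pacs2 was lower than in Rop7-II by 1.03 ± 0.04 (SE) in Rop7-I and by 0.35 ± 0.04 (SE) in Rop7-III, and higher in Rop7-III than in Rop7-I by 0.68 ± 0.04 (SE), with adjusted p of 7.78e-07, 4.30e-04 and 2.06e-05 by limma. M6pr, a mannose 6-phosphate receptor, was lower in Rop7-III than Rop7-II by 0.18 ± 0.03 (SE), with an adjusted p of 0.00177 by limma. The higher 2 were Ap1b1, a subunit of the clathrin adaptor AP-1, at 0.23 (adjusted p of 0.00822 by limma), and Igf2r, the other mannose 6-phosphate receptor, at 0.22 (0.00543). In the fits that left out 1 sample, Ap1b1 kept its call in 1 of 9, the one without Rop7-II replicate 2, with adjusted p of up to 0.0341. Igf2r kept it in 4 of 9, and lost it without any one Rop7-III sample or without Rop7-II replicate 1 or 3, with adjusted p of up to 0.0233. Both loci overlap other genes.

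**Figure D4:**
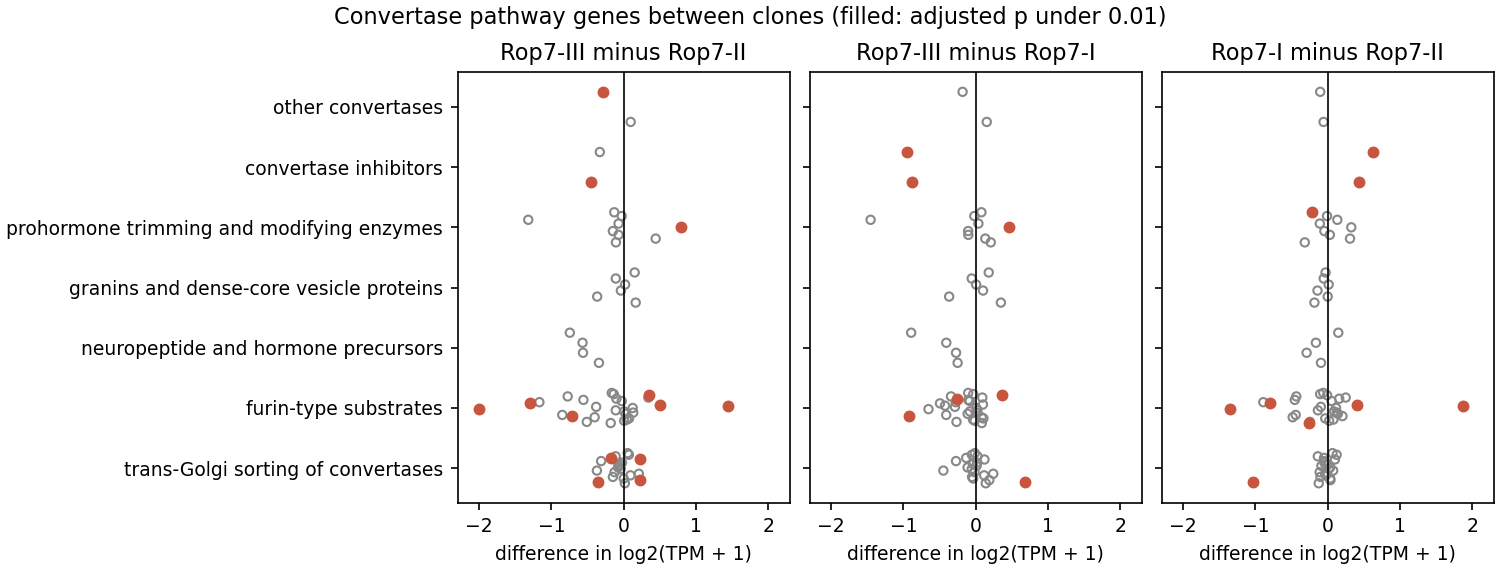
Differences in log2(TPM + 1) of the tested genes of the 7 pathway lists (rows) for each pair of clones (panels), where filled points passed at an adjusted p under 0.01 by limma. Most genes lie near 0, the 2 tested inhibitors lie at -0.89 and -0.96 between Rop7-III and Rop7-I, and Itga6 and Notch3 lie farthest out among the furin-type substrates between Rop7-III and Rop7-II.

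The genes next to Scg5 did not share its pattern. Before it on chromosome 2, Grem1 (17.7 kb away), 4930533B01Rik and Fmn1 did not exceed 0.12 TPM. After it by position, Arhgap11a, a GTPase-activating protein that is expressed in dividing cells, has its nearer edge 2.40 kb away. Arhgap11a was at 5.84 ± 0.410 TPM in Rop7-I, 10.5 ± 0.288 in Rop7-II and 6.12 ± 1.14 in Rop7-III (SD, n = 3). It was thus highest in the clone where Scg5 was lowest, by 0.75 ± 0.11 (SE) over Rop7-I and by 0.70 ± 0.11 (SE) over Rop7-III, with adjusted p of 0.00235 and 0.00220 by limma. The first of these rose over 0.01 without Rop7-I replicate 1 (0.0119) or 2 (0.0104) and the second without Rop7-III replicate 2 (0.0114). The next genes, Gjd2 and A530058N18Rik, did not exceed 0.1 TPM.

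Pcsk1 stands farther from other genes of the table, with 281 kb to the nearest neighbour before it and 510 kb to the nearest after it. Before it lie Cast, the inhibitor of calpains, Erap1, an aminopeptidase that trims peptides for class I molecules, and Zfp825. Cast passed in no pair. Erap1 was higher in Rop7-I than in Rop7-II by 0.33 ± 0.03 (SE), with an adjusted p of 2.37e-04 by limma. Erap1 also passed for Rop7-III minus Rop7-I at -0.22 (adjusted p of 0.00281 by limma). That call held in 4 of the 9 fits that left out 1 sample. Zfp825 was higher in Rop7-III than Rop7-II by 0.34 ± 0.06 (SE), with an adjusted p of 0.00275 by limma. Erap1 and Cast overlap each other. After Pcsk1 lie Mir682, listed at 0 except for 6.98 TPM in Rop7-II replicate 3, Ell2, which passed in no pair, and Glrx, a glutaredoxin. Glrx was higher in Rop7-III than Rop7-II by 0.64 ± 0.05 (SE) and higher in Rop7-I than in Rop7-II by 0.35 ± 0.05 (SE), with adjusted p of 4.24e-05 and 0.00180 by limma. Glrx also passed for Rop7-III minus Rop7-I at 0.29 (adjusted p of 0.00641 by limma), a call that held in 3 of these 9 fits. None of the neighbours that passed was highest in Rop7-II, as Pcsk1 was.

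The genes with the most similar profile to Scg5 were sought by Pearson's r on log2(TPM + 1) over the 9 samples, among 546 tested genes whose clone means differed by at least 1 on that scale. Among the 5 highest were Col6a4 (r = 0.987), Smc6 (0.984), Fam221a (0.977) and Ifngr1 (0.976). Col6a4, a collagen chain, was at 2.58 ± 0.147 TPM in Rop7-I, 0.0133 ± 0.0115 in Rop7-II and 3.37 ± 0.417 in Rop7-III (SD, n = 3). Smc6, a subunit of a DNA repair complex, was at 380 ± 7.26, 103 ± 10.3 and 468 ± 17.4 TPM in the same order, with a locus that overlaps Gen1. Ifngr1, a chain of the receptor for interferon gamma, was at 358 ± 34.9, 170 ± 21.5 and 339 ± 26.8 TPM. These 4 were lowest in Rop7-II, and the fold of Scg5 was larger than that of Smc6, Fam221a and Ifngr1.

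Those most like Pcsk1 were Dtx1 (r = 0.992), Notch3 (0.966), Gpr97 (0.965), Pmepa1 (0.964) and Reep1 (0.958). Dtx1, or Deltex1, a regulator and known target of Notch signalling, measured 38.99, 37.51 and 28.01 in Rop7-I, 56.47, 61.23 and 51.22 in Rop7-II and 18.61, 23.63 and 18.93 TPM in Rop7-III T cells. Within Rop7-I, Pcsk1 and Dtx1 were both lowest in replicate 3, but Dtx1 was chosen by its r over these same samples. Notch3, described above among the substrates, held the same order of clones. Pmepa1, a gene induced by transforming growth factor beta, was at 13.4 ± 1.47, 16.7 ± 1.14 and 7.65 ± 0.474 TPM in Rop7-I, Rop7-II and Rop7-III (SD, n = 3). Each r is a description over 9 samples that share 3 clones, and the candidates were limited to genes that differed between clones.

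**Figure D5:**
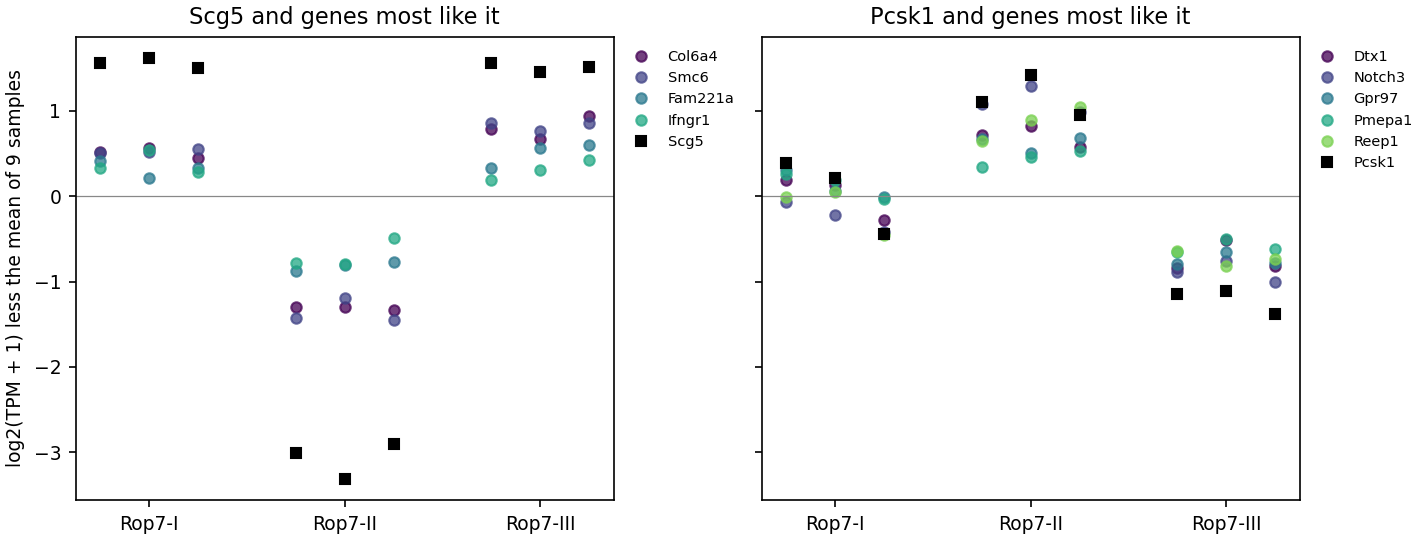
Level in log2(TPM + 1) of Scg5 (left) and Pcsk1 (right, black squares) and of genes among the 5 most like each (coloured points, 4 on the left and 5 on the right), less each gene's mean over the 9 samples, in 3 samples per clone. Every gene on the left is lowest in Rop7-II, and every gene on the right has its highest clone mean in Rop7-II and its lowest in Rop7-III.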

How the data were processed

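RNA-seq of 9 samples of sorted CD8 T cells was used, 3 per clone as labelled. The authors estimated gene expression with RSEM 1.2.11 on the mouse mm10 build from libraries without strand, and deposited TPM per gene and sample. They tested counts with DESeq2 1.8.1, which does not apply to TPM. Here log2(TPM + 1) of the 12115 genes with a maximum over 1 TPM was fitted with limma 3.58.1 (trend of the spread on expression, all 9 samples, no block) in R 4.3.3. Benjamini-Hochberg adjustment ran over all genes within each pair, and an adjusted p under 0.01, the study's rate, counts as passed. Intervals are at 95%. Tables were made in Python 3.11.15 with pandas 2.3.3, and the fit was tested on simulated data. P values measure the spread between these samples, which may be partly technical. Neither the depth behind a value nor an interval for counting error can be had from TPM. Positions are from RefSeq on GRCm38, the assembly of mm10.

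The members and gene lists were chosen with earlier results of these data known. Genes named are the members, the tested convertases and inhibitors, up to 6 genes with the smallest F-test p among those that passed in each other list, the 3 nearest genes on each side of Scg5 and Pcsk1, and the 5 most like each, except for some that are not reported here. Alternatives were another pseudocount, filter, normalization, spread model, threshold or sample set.

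Markers of further cell types were summed per sample, over all clones to 32.9 to 80.3 TPM for plasma cells, 23.5 to 47.6 TPM for CD4 T cells and 168 to 186 TPM for platelets, endothelium and stroma.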

Additional observations from a re-analysis of the deposited data

How the results depend on the processing

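For the members, no difference that passed reversed under any alternative. The differences of Pcsk7, which passed in no pair, lay on both sides of 0 when 1 sample was left out, from -0.03 to 0.03 for Rop7-III minus Rop7-II, -0.07 to 0.00 for Rop7-III minus Rop7-I and -0.01 to 0.07 for Rop7-I minus Rop7-II. The call of Furin between Rop7-I and Rop7-II was lost in a fit of only those clones, at the same difference of 0.29 with an adjusted p of 0.0138 by limma, and ranged from 0.26 to 0.32 when 1 sample was left out. The other calls of Furin and Pcsk7 kept their side of the threshold. With 0.1 or 0.5 TPM added in place of 1, Scg5 differed by 4.94 or 4.77 between Rop7-III and Rop7-II and by 4.99 or 4.82 between Rop7-I and Rop7-II, and with 0.1 TPM added Pcsk1 differed by -2.68 between Rop7-III and Rop7-II. These follow from the TPM added. Of the pathway genes, the numbers that passed were 22 between Rop7-III and Rop7-II and 17 between Rop7-III and Rop7-I at an adjusted p under 0.05, 4 between Rop7-III and Rop7-I with no filter or with no trend of the spread, and 3 between Rop7-I and Rop7-II in a fit of only those clones. With 1 sample left out they were 10 to 14, 4 to 10 and 4 to 10 in the 3 pairs. The cause was not tested. Same-numbered replicates share only a number, with correlations of their deviations from -0.446 to 0.121 over the 9 pairs of samples. With the replicate number as a block, Furin had an adjusted p of 0.00111, 0.161 and 0.00590 by limma for Rop7-III minus Rop7-II (0.40), Rop7-III minus Rop7-I and Rop7-I minus Rop7-II, and 11, 6 and 6 pathway genes passed. Depth cannot be assessed from TPM, and genes under 1 TPM, among them Pcsk2, Pcsk5 and Pcsk1n, were beyond a test.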
